A study of Mus musculus with 24 samples.

Results

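Oligodendrocyte precursor cells (OPCs) of the adult mouse lumbar spinal cord were described from single-nucleus RNA profiles. The members were the 183 nuclei that carry the OPC label in the authors' deposited cell annotation, out of 13425 nuclei with a class (1.36%) and 18000 barcodes in all. No marker threshold was applied on top of the label. The label came from clustering of these same profiles, so every comparison of OPC nuclei with another class below is a description without a test.

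OPCs are the dividing glial cells from which oligodendrocytes, the myelin-forming cells of the central nervous system, arise. They respond to platelet-derived growth factor through the receptor Pdgfra and carry the surface proteoglycan Cspg4 (NG2), while versican (Vcan) is a matrix proteoglycan that they make. In the adult cord they remain as a scattered, slowly dividing population that receives synapses from axons, and as they commit to oligodendrocyte fate they switch off Pdgfra and pass through a stage that transiently expresses genes such as Gpr17 and Bcas1 before the myelin genes come on.

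The 24 libraries came from male and female ICR/CD-1 outbred mice aged 8 to 11 weeks. There were 9 control libraries, 10 from mice given formalin (30 µl of 2% paraformaldehyde in the sole of both hindpaws, used as a painful stimulus) and 5 from mice run on a rotarod that sped up from 0 to 40 rpm within 5 min; the labels record 1 h of habituation before either procedure, and no transgene or deletion. The lumbar cord, freed of dorsal root ganglia, was homogenised to release nuclei. Drop-seq, in which a bead and a nucleus meet in a droplet, tagged their RNA molecules with unique molecular identifiers (UMIs), so that each captured molecule is counted a single time. The labels' tissue field reads Brain, whereas the protocol names the lumbar cord; the lumbar-level genes Hoxa10, Hoxc10 and Hoxd10 gave 557 UMIs over all nuclei with a class, in 24 of 24 libraries.

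Each library holds 750 barcodes and between 549903 and 3243587 UMIs. OPC nuclei numbered 2 to 18 a library, with 70 in control, 91 in formalin and 22 in rotarod libraries. They held 189504 UMIs in all, at a median of 832 UMIs a nucleus, against 1092 in 2184 oligodendrocytes, 1214.5 in 1224 astrocytes and 2214 in 7103 neurons. In total 42 barcodes shared their sequence with a barcode of another library, and 0 of these were OPC nuclei. Formalin libraries 1 to 5 were each closest to libraries 6 to 10 in that order (10 of 10 closest to their partner over 6594 genes, with correlations of deviations from the group mean of at least 0.14 against at most 0.07 for other formalin pairs). The labels do not say whether such pairs share an animal. If they do, p-values that count 10 formalin mice are too small.

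The 3 genes that define OPCs were far higher in nuclei with the OPC label than in the other glia and in neurons. Levels are given as pooled CPM, the UMIs of a gene summed over the nuclei of a class in all libraries, as counts per 1000000 UMIs of that class, with a 95% Poisson interval that covers counting error only. Vcan stood at 1003 CPM (865 to 1156), against 32 in oligodendrocytes, 45.5 in astrocytes and 20.2 in neurons. Pdgfra stood at 248 CPM (182 to 330), against 7.16, 9.21 and 2.92 in the same order. Cspg4 stood at 216 CPM (155 to 294), against 5.80, 8.06 and 3.15. Other non-neuronal classes of the cord also carried some of these genes: Pdgfra reached 62.7 CPM in meningeal or Schwann cells, Cspg4 121 CPM in endothelial or vascular cells, whose pericytes use NG2, and Vcan 188 CPM in the microglia class.

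At least 1 UMI of Pdgfra, Vcan or Cspg4 (a defining UMI) was present in 84 of the 183 OPC nuclei (45.9%). The same held for 4.08% of oligodendrocytes, 6.70% of astrocytes and 6.04% of neurons, which should lack these genes and had higher median depths. After every nucleus was thinned to 500 UMIs, the share was 42.2% of the 154 OPC nuclei with at least that depth (183 before), against 1.86% of oligodendrocytes, 2.37% of astrocytes and 1.43% of neurons. Vcan was found in 72 OPC nuclei, Pdgfra in 31 and Cspg4 in 26. The remaining 99 nuclei held no UMI of any of the 3 genes, and their depth was lower (median 743 UMIs, against 898.5 in the 84).

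The 14 leading genes of the class include cell-surface, matrix and signalling genes in addition to the 3 defining ones. They are the genes with the largest ratio of OPC CPM to the highest of oligodendrocytes, astrocytes and neurons, after 2 single nuclei described below were set aside. Neu4, a sialidase known from OPCs and newly committed precursors, was first at 62.8-fold, with 31 UMIs in 22 OPC nuclei (164 CPM, against 2.73 in oligodendrocytes, 2.30 in astrocytes and 1.03 in neurons). Susd5 followed at 32-fold and Amz1, a metallopeptidase, at 30.9-fold. Mybpc1, a myosin-binding protein best known from muscle, stood at 22.4-fold, with 40 UMIs in 22 nuclei. Itga9, an integrin subunit that binds the matrix protein tenascin-C, stood at 17.7-fold, and Ppfibp1, a liprin of the adhesion and synapse scaffold, at 14.2-fold. The other genes of this kind were Emid1 (13.6-fold), Afap1l2 (10.1-fold), the AMPA receptor auxiliary subunit Cacng4 (9.94-fold), Megf11 (9.61-fold) and the GTPase activator Arhgap31 (7.83-fold). Hbb-bt, a haemoglobin chain, also passed the rule at 9.18-fold, but 122 of its 132 UMIs lay in 1 rotarod nucleus of 1571 UMIs that held 0 defining UMIs.

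**Figure D1:**
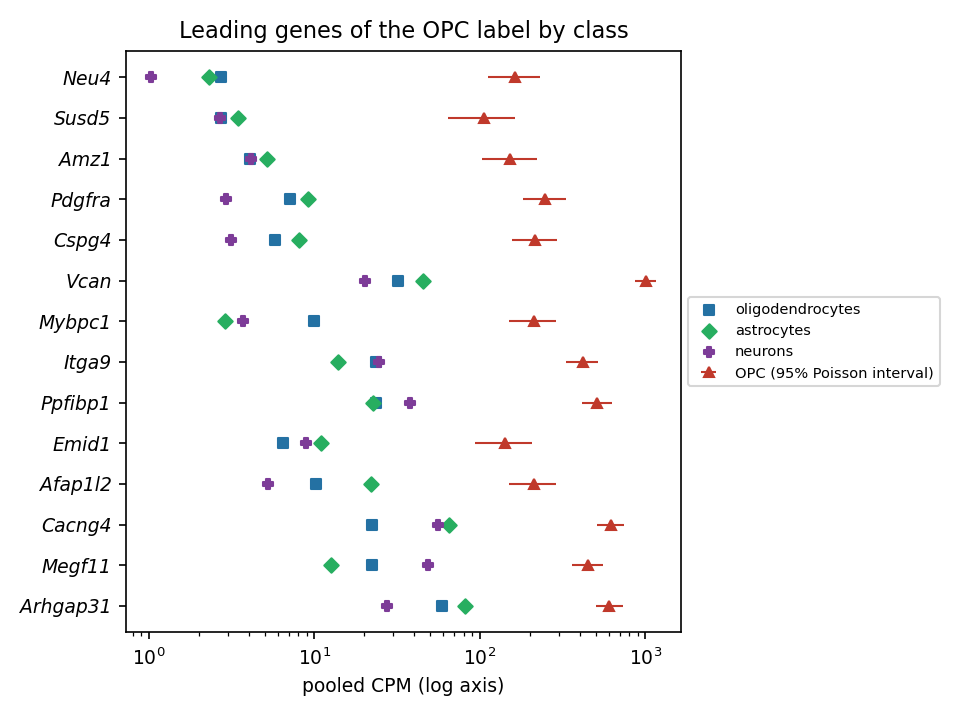
Pooled CPM (log axis) of the 14 leading genes in OPC nuclei (triangles, with 95% Poisson intervals), oligodendrocytes (squares), astrocytes (diamonds) and neurons (crosses). The OPC level of each gene, drawn over all 183 OPC nuclei, lies above the other 3 classes. After 2 single nuclei were left out the ratios ran from 7.83-fold for Arhgap31 to 62.8-fold for Neu4.

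Arhgap31, Ppfibp1 and Afap1l2 were not low in every other class. Arhgap31 stood at 607 CPM in OPC nuclei and at 1071 CPM in endothelial or vascular cells. Afap1l2 stood at 211 CPM in OPC nuclei, 208 in meningeal or Schwann cells and 196 in endothelial or vascular cells. Itga9, Megf11 and Cacng4 had a higher CPM in OPC nuclei than in oligodendrocytes of the same mouse, and likewise than in astrocytes and than in neurons, in 17 of the 19 mice with at least 5 OPC nuclei. Vcan did so in 17, Pdgfra in 14 and Cspg4 in 12. In each case these were all the mice whose OPC nuclei held a UMI of the gene. The lower counts of Pdgfra and Cspg4 thus follow detection, at 45 and 36 UMIs over the 19 mice.

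The promoters of the leading genes were read to show the sequence upstream of genes that stand out together in OPC nuclei. Windows of 250 bases before the most upstream RefSeq start (build GRCm38.p6) were at hand for 12 of the 15 genes, Hbb-bt included. They were searched on both strands for CAGCTG, a palindromic E-box of the kind bound by basic helix-loop-helix factors such as Olig2, and for ACAAAG or ACAATG, the core letters of Sox motifs; the searched letters do not overlap one another. CAGCTG was in 2 of 12 windows (16.7%), those of Itga9 and Mybpc1, and in 3443 of 27025 promoters of the same length (12.7%). The Itga9 window (chr9:118711442-118711691, plus strand) lies inside the gene as the GENCODE annotation places it (118606690-118901003). It is therefore not upstream of the gene start of that annotation. The windows of Susd5, Cspg4, Hbb-bt, Emid1 and Ppfibp1 also ran in part into the gene of that annotation, whereas those of Pdgfra and Mybpc1 did not. ACAAAG or ACAATG was in 0 of 12 windows and in 6872 of 27025 promoters (25.4%). The Pdgfra window is printed as the class's defining receptor, and the Mybpc1 window because it holds the E-box, in capitals, starting 87 bases before the start; both read 5′ to 3′ on the strand of the gene. The Pdgfra window is chr5:75152001-75152250 (plus strand) and the Mybpc1 window is chr10:88605153-88605402 (minus strand).
Pdgfra: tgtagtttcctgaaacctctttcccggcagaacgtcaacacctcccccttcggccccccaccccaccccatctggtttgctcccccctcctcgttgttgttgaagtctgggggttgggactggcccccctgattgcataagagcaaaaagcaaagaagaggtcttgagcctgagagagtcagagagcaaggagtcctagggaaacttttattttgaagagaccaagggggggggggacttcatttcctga
Mybpc1: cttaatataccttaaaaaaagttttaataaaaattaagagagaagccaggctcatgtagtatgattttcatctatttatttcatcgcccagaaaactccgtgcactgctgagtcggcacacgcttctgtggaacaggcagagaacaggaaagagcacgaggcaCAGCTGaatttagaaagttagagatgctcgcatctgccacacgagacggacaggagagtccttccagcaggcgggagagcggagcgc

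Single nuclei made up most of the counts of several genes that would otherwise lead the list. A formalin 4 nucleus of 7159 UMIs, the deepest of the class, held 652 of the class's 813 neurofilament UMIs, 38 of its 41 UMIs of the choline transporter Slc5a7 and 34 of its 40 UMIs of Spp1, along with 7 UMIs of the acetylcholine synthesis gene Chat and 1 defining UMI. Those genes are known markers of motor neurons. A control 9 nucleus of 1313 UMIs held 133 of the 134 UMIs of Aplf, a DNA repair factor, and most of those of Aph1c. With these 2 nuclei Aplf, Spp1, Slc5a7 and Aph1c were among the 15 leading genes, at ratios of 86.4, 54.6, 27.3 and 17.4. Without them all 4 left the list.

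OPC nuclei with and without a defining UMI differed in the rest of the OPC programme and in neuronal RNA. The extended OPC list, 30 genes known from OPCs other than the 3 defining ones, took a median of 3.03% of the UMIs of a nucleus in the 84 nuclei with a defining UMI and 0.725% in the 99 without. It reached 2% in 71 of the 84 and in 6 of the 99. The median was 0.367% in oligodendrocytes, 0.778% in astrocytes and 0.665% in neurons. The order was turned for the neuron list, 29 genes measured here, with medians of 1.14% in nuclei with a defining UMI and 3.01% in those without. Neurons had 4.18%, oligodendrocytes 0.847% and astrocytes 0.738%. A UMI of the lineage factors Olig1, Olig2 or Sox10 was present in 22 of the 84 nuclei (26.2%) and in 8 of the 99 (8.08%). This division of the class was chosen after values were seen and is given without a test.

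**Figure D2:**
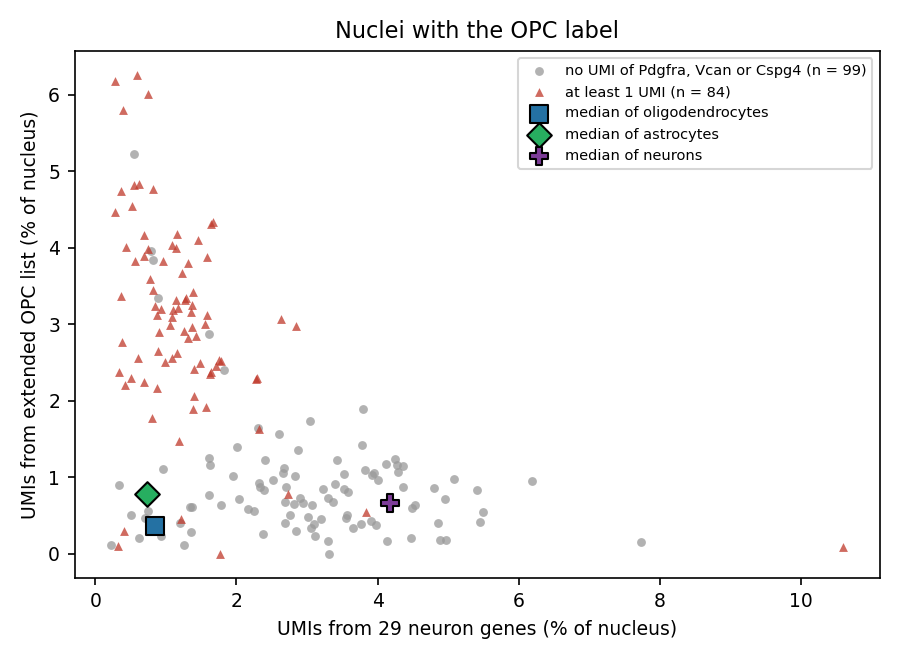
Each point is 1 of the 183 OPC nuclei, with the share of its UMIs from 29 neuron genes on the horizontal axis and from the extended OPC list on the vertical axis, in percent. Nuclei with a defining UMI (triangles, n = 84) lie mostly at the upper left, with medians of 1.14% and 3.03%, and those without (circles, n = 99) at the lower right, with medians of 3.01% and 0.725%; large symbols give the medians of 3 other classes.

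The difference ran in the same direction within most mice. Among the 600 other genes with at least 50 OPC UMIs, 93 were at least 2-fold higher in nuclei with a defining UMI and 58 at least 2-fold higher in those without. In the 14 mice that had at least 2 nuclei of each kind, Xylt1, which starts the sugar chains of proteoglycans, was higher with a defining UMI in 14 (pooled 1198 against 76.2 CPM). Ppfibp1 and Arhgap31 were also higher in 14 of 14 mice, and Cacng4 in 13 (1106 against 98 CPM). Tnr, the matrix protein tenascin-R, stood at 3390 against 816 CPM and was higher in 12 mice. Itga9 stood at 768 against 43.5 CPM (12 mice), and Neu4 had 31 UMIs with and 0 without. In the other direction the long noncoding RNA Meg3, abundant in neurons, stood at 6800 CPM with a defining UMI and 19432 without, and was higher without in 14 of 14 mice. Snhg11, another neuronal noncoding RNA, stood at 707 against 3103 CPM, and the myelin gene Mbp at 676 against 1960 CPM.

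**Figure D3:**
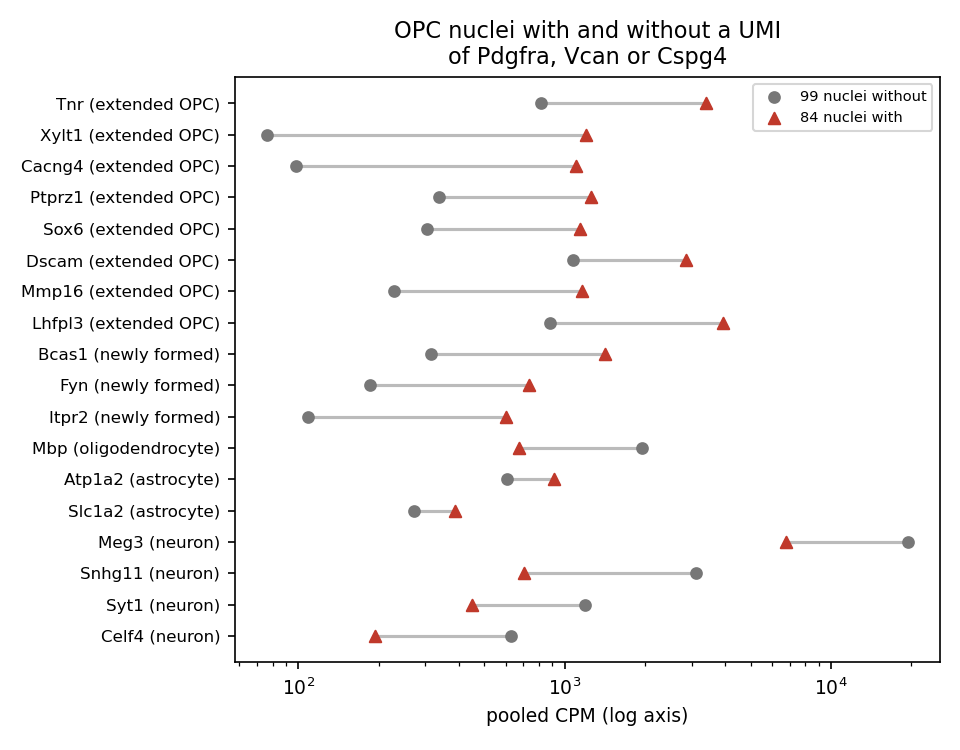
Pooled CPM (log axis) of genes from 5 marker lists in the 99 OPC nuclei without (circles) and the 84 nuclei with (triangles) a UMI of Pdgfra, Vcan or Cspg4. Genes of the extended OPC list and newly formed oligodendrocyte list are higher with a defining UMI, such as Xylt1 at 1198 against 76.2, whereas Meg3, at 6800 against 19432, and the other neuron genes shown are lower.

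Because OPC nuclei held neuronal RNA, each gene was set against the level that neuronal RNA from the same mice would give. Free RNA from 1 source keeps its genes in 1 ratio, so the rate was taken as the median, over the neuron list genes with at least 10 expected UMIs, of OPC UMIs divided by the UMIs expected if the nuclei had the neuron profile. It was 0.649 in OPC nuclei (27 genes, quartiles 0.459 and 0.952), against 0.250 in oligodendrocytes, 0.237 in astrocytes, 0.228 in meningeal or Schwann cells, 0.183 in endothelial or vascular cells and 0.338 in microglia. Without the 2 single nuclei the rate in OPC nuclei was 0.541, whereas the counts below use 0.649. The rate was 0.714 in OPC nuclei without a defining UMI and 0.563 in those with one, or 0.408 for the latter without the 2 single nuclei. For Meg3 alone the ratio was 0.665 without and 0.236 with a defining UMI, the latter near the 0.199 of oligodendrocytes. The source of this RNA was not tested. A gene was taken as above the neuronal level when the lower bound of its Poisson interval exceeded 2 times the rate times its expected UMIs. Of 3741 genes with at least 10 OPC UMIs, 527 (14.1%) met this, and the median gene stood at 1.64 times the level given by the rate.

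Many matrix and proteoglycan genes stood above that level. Of 27 genes listed, 19 had at least 10 OPC UMIs, and 6 of these were at least 2-fold higher than in each of oligodendrocytes, astrocytes and neurons, where 4.54% of all 3741 genes were. Above the neuronal level were 14 of the 19, where 14.1% of all genes were. The list median was 6.60 times that level, against 1.64 over all genes. Beside Vcan and Cspg4 the 6 were Tnr (2142 CPM, against 166, 125 and 350 in oligodendrocytes, astrocytes and neurons), Cspg5, the proteoglycan neuroglycan C (317 against 15, 61.0 and 59.3), Xylt1 (654 against 44.3, 225 and 75.1) and the matrilin Matn4 (169 against 50.1, 13.8 and 5.85). Vcan and Cspg4 are defining genes, and Tnr, Xylt1 and Matn4 are on the extended OPC list. Both counts hold these genes, which were chosen as OPC genes, so the counts are no independent evidence. Ptprz1, a phosphatase receptor that carries chondroitin sulfate, was shared with astrocytes, at 813 CPM in OPC nuclei and 1128 in astrocytes, against 62.7 in oligodendrocytes. Gpc5 was lower than in astrocytes (1351 against 7850 CPM).

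The extended OPC list held 30 genes, of which 24 had at least 10 OPC UMIs. Of these, 19 were at least 2-fold higher than in oligodendrocytes, 16 than in astrocytes and 19 than in neurons, where 28.7%, 26.2% and 15.7% of all 3741 genes were. In 8 this held against each of the 3 classes, and 22 were above the neuronal level, where 4.54% and 14.1% of all genes were. Besides Tnr, Xylt1 and Matn4 the 8 were Lhfpl3, a tetraspan membrane protein gene (2449 CPM, against 305, 1088 and 788), C1ql1, a secreted C1q-like protein (58.0 against 0.68, 4.60 and 0.85), Megf11, Cacng4 and the matrix metalloprotease Mmp16 (707 against 145, 111 and 352). Dscam, an adhesion molecule, stood at 2000 CPM against 1077 in neurons. Pcdh15 and Stk32a were the 2 genes not above the neuronal level. The list's genes were chosen as OPC genes, so their height in cells with that label is no independent evidence.

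Among 12 growth factor receptors with at least 10 UMIs 1, Pdgfra, was 2-fold above each of the 3 classes, where 4.54% of all genes were. Pdgfra is a defining gene, so this is no independent evidence. Pdgfra, Erbb4, Tgfbr1 and Lifr, 4 of the 12, were above the neuronal level, against 14.1% of all genes. Erbb4, a neuregulin receptor, stood at 1266 CPM, against 1492 in oligodendrocytes and 2166 in astrocytes. The receptors Ntrk2 and Ntrk3, at 359 and 491 CPM, lay below the astrocyte values of 460 and 718. Pdgfra CPM was uneven between mice, at 0 to 1619 (median 155) over the 19 mice with at least 5 OPC nuclei, and 5 of the 19 were at 0. These values rest on 45 UMIs over the 19 mice, 20 of them in control mice, so counting error is large. The control mice stood at 0, 82.8, 89.2, 155, 160, 168 and 1619 CPM. The formalin mice ranged from 0 to 607 with a median of 194, and the 3 rotarod mice stood at 0, 0 and 316. The groups overlapped. Vcan CPM, with more UMIs, ranged from 0 to 2393 with a median of 1008, and 2 mice were at 0, formalin 6 and rotarod 1, neither of which had a nucleus with a defining UMI.

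Transmitter receptor and channel genes are of kinds that OPCs are known to express. Few of those listed were above the neuronal level, as were 14.1% of all 3741 genes, so most genes of any kind were not. At 2 times a rate of 0.649, a gene that OPCs express at the CPM of neurons cannot pass. These counts therefore cannot tell a receptor that OPCs express from carried-over RNA. Of 22 glutamate receptor and auxiliary subunit genes with at least 10 UMIs, Cacng4 and the metabotropic receptor Grm3 were above the neuronal level. Cacng4, which is on the extended OPC list, was alone in being 2-fold above each of the 3 classes, where 4.54% of all genes were. The AMPA receptor subunits Gria2 and Gria4 stood at 1040 and 1916 CPM, against 901 and 1979 in neurons. Grm3 was lower than in oligodendrocytes (354 against 958 CPM). None of 12 GABA and glycine receptor genes and 1 of 27 voltage-gated and potassium channel genes, the glial potassium channel Kcnj10, were above that level. Kcnj10 was lower than in astrocytes (142 against 442 CPM). The list medians were 1.49, 1.18 and 1.07 times the neuronal level, against 1.64 over all genes. Summed over the list, glutamate receptor genes stood at 15157 CPM in nuclei with a defining UMI and 13369 in those without. GABA and glycine receptor genes stood at 2827 and 2972 CPM in that order, and the channel genes at 10200 and 12639 CPM.

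Adhesion and guidance genes were counted beside the share of all 3741 genes above the neuronal level, 14.1%. Of 39 adhesion and synapse organiser genes 7 were above it, and of these Nlgn3, a neuroligin, was the 1 gene 2-fold above each of the 3 classes (52.8 CPM, against 4.09, 10.9 and 10.4; 10 UMIs). Of 23 axon guidance genes 5 were above the neuronal level, and 2 genes, the semaphorins Sema3d (142 CPM, against 23.5, 19.0 and 17.8) and Sema5b (274 against 16, 11.5 and 47.2), were 2-fold above each, as were 4.54% of all genes. Nothing particular to either list was read from these counts. Both were also higher in nuclei with a defining UMI, at 256 against 21.8 CPM for Sema3d and 492 against 43.5 CPM for Sema5b.

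Several transcription factors of the lineage had levels in OPC nuclei near those of another glial class. Of 18 with at least 10 UMIs, 14 were above the neuronal level, where 14.1% of all 3741 genes were. Of the same 18, 0 were 2-fold above each of the 3 classes, where 4.54% of all genes were. The 0 is near that share, so nothing was read from it. Sox6, which holds back differentiation, stood at 739 CPM in OPC nuclei and 666 in astrocytes, against 45.3 in oligodendrocytes. Sox5 had the same distribution (565, 532 and 78.4 CPM). Sox10, a factor of the whole oligodendrocyte lineage, stood at 137 CPM in OPC nuclei and 151 in oligodendrocytes, against 9.21 in astrocytes. Etv4 stood at 158 CPM, against 9.54 in oligodendrocytes and 179 in astrocytes. Olig1 and Olig2 had 9 UMIs each, too few for a level with a narrow interval (21.7 to 90.2 CPM).

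Genes of the step from precursor to oligodendrocyte were present in part. Of the 17 measured genes of committed precursors and newly formed oligodendrocytes 8 had at least 10 OPC UMIs. Above the neuronal level were 7 of these 8, where 14.1% of all 3741 genes were. Bcas1 stood at 881 CPM, against 820 in oligodendrocytes and 104 in astrocytes, and at 1413 CPM in nuclei with a defining UMI. Fyn, a kinase of early myelination, stood at 470 CPM, against 122 in oligodendrocytes. Itpr2 stood at 364 CPM, against 57.6 in oligodendrocytes and 395 in astrocytes. Enpp6, a marker of newly formed oligodendrocytes, was lower than in oligodendrocytes (116 against 368 CPM), and Gpr17 had 9 UMIs, 47.5 CPM, all in nuclei with a defining UMI. Myelin genes were lower than in oligodendrocytes. Mbp stood at 1298 against 3680 CPM and Mog at 95 against 1061. In astrocytes, which do not make myelin, Mbp stood at 795 CPM. All 13 mature oligodendrocyte genes with at least 10 UMIs were above the neuronal level, where 14.1% of all genes were. Of these 13, 0 were 2-fold above each of the 3 classes, where 4.54% of all genes were. The list summed to 6517 CPM in OPC nuclei, 29053 in oligodendrocytes, 3937 in astrocytes and 2004 in neurons. The neuronal level takes no account of RNA from oligodendrocytes. These counts therefore cannot tell expression in OPCs from carried-over oligodendrocyte RNA.

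Markers of astrocytes, microglia and vascular cells were low beside the classes they mark. Astrocyte genes summed to 1636 CPM, against 10812 in astrocytes and 1082 in oligodendrocytes. Microglia genes summed to 301 CPM, against 2770 in the microglia class and 148 in oligodendrocytes. Endothelial genes summed to 89.7 CPM, with 5 of 10 at 0 UMIs, against 17041 in endothelial or vascular cells. The pericyte and fibroblast list summed to 237 CPM with 5 of 12 genes at 0, the Schwann cell list to 375 CPM with 1 of 6 at 0 and the ependymal list to 31.7 CPM with 1 of 6 at 0.

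Signs of division were confined to few nuclei. The mitotic genes Mki67, Top2a, Cenpf and Cenpe gave 33 UMIs in 8 OPC nuclei, 26 of them in 2 nuclei. These were a control 8 nucleus of 2071 UMIs with 14 and a rotarod 3 nucleus of 424 UMIs with 12, and each held 0 defining UMIs. At least 3 such UMIs were found in 2 of 183 OPC nuclei (1.09%, exact 95% binomial interval 0.133 to 3.89), 4 of 165 microglia (2.42%, 0.664 to 6.09) and 1 of 2184 oligodendrocytes (0.0458%, 0.00116 to 0.255). The 2 OPC nuclei had 0.290% (control 8) and 0.472% (rotarod 3) of their UMIs from the extended OPC list. Medians were 3.03% in nuclei with and 0.725% in nuclei without a defining UMI, so that their identity as OPCs rests on the label. Rapid activity genes (Fos, Egr1, Arc and the like) gave 27 UMIs in all OPC nuclei, 142 CPM, with 12 of 24 genes at 0, so that no gene of this list could be compared between groups.

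The share of OPC nuclei was compared between groups over mice, as an index of how often the class was caught. Fewer cells of a type and fewer nuclei of it recovered cannot be told apart. The share was 1.32% ± 0.830 (SD, n = 9) of nuclei with a class in control, 1.95% ± 1.15 (SD, n = 10) in formalin and 0.877% ± 0.506 (SD, n = 5) in rotarod mice. The mice ranged from 0.286% to 2.72% (median 0.985%), from 0.668% to 4.27% (median 1.71%) and from 0.280% to 1.40% (median 0.921%), so that all 3 groups overlapped. Formalin minus control was 0.630 percentage points (two-sided exact permutation p = 0.196, adjusted p = 0.352 over 9 single-value tests). Rotarod minus control was −0.445 (exact permutation p = 0.310, adjusted p = 0.398) and formalin minus rotarod 1.07 (exact permutation p = 0.0649, adjusted p = 0.212). No comparison passed the threshold of 0.05 after adjustment. The size of the difference depended on the denominator and on the controls used. Over all barcodes of a mouse, of which 15 to 446 were discarded by the authors, formalin minus control was 0.176 (exact permutation p = 0.560) and formalin minus rotarod 0.627 (exact permutation p = 0.0430, adjusted p = 0.212). Over non-neuronal nuclei rotarod minus control was −0.890 (exact permutation p = 0.146) and formalin minus rotarod 1.76 (exact permutation p = 0.0619). With the 3 controls that have cx in their title left out, formalin minus control was 0.336 and rotarod minus control −0.739.

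The share was lower in libraries with more UMIs. Total UMIs are not a measure of depth alone, since each library holds 750 barcodes and neurons had more UMIs than OPC nuclei (medians 2214 and 832). More neurons in a library thus add to its UMIs and take from the share of other classes. The part of neuron numbers in the correlations was not tested. Over 24 libraries Pearson's r of the share with log10 total UMIs was −0.52 (permutation p = 0.00845, adjusted p = 0.0231 over 4 correlations) and Spearman's rho was −0.64 (permutation p = 0.00085, adjusted p = 0.00340). Without the 2 libraries farthest from the median depth, control 7 and rotarod 4, r was −0.46 (permutation p = 0.0311, adjusted p = 0.0415). Within control libraries r was −0.80 and rho −0.70 (n = 9, permutation p = 0.0115 and 0.0431, adjusted p = 0.0231 and 0.0574), and within formalin libraries r was −0.25 and rho −0.45 (n = 10, permutation p = 0.486 and 0.192, adjusted p = 0.486 and 0.192). The 5 rotarod libraries were too few. Median total UMIs were 1816217 in control, 1089887 in formalin and 1252716 in rotarod libraries, and the part of depth in the group values was not tested.

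**Figure D4:**
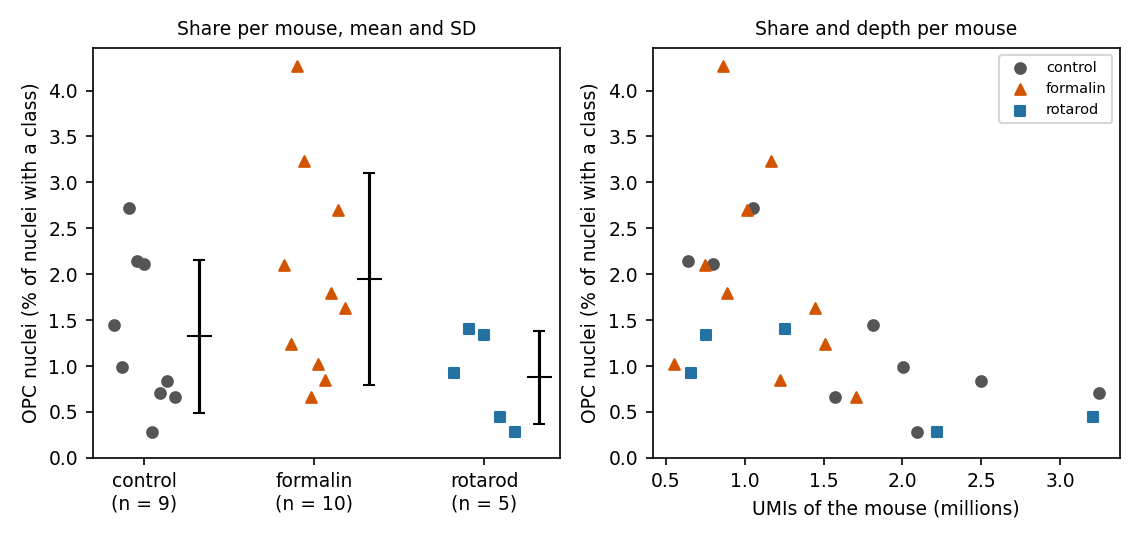
Left, the OPC share of nuclei with a class (percent) in each mouse of the 3 groups, with the group mean and SD in black; right, the same share against the UMIs of the mouse (axis in units of 1000000). The groups overlap, with means of 1.32% in control, 1.95% in formalin and 0.877% in rotarod mice, and the 2 deepest libraries had shares of 0.704% (control 7) and 0.449% (rotarod 4).

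The depth of OPC nuclei and their neuronal RNA were compared over mice with at least 3 OPC nuclei. The per-mouse median UMI count was 1290 ± 659 (SD, n = 8) in control, 835.5 ± 218 (SD, n = 10) in formalin and 847 ± 578 (SD, n = 4) in rotarod mice. Formalin minus control was −455 UMIs (exact permutation p = 0.0597, adjusted p = 0.212) and rotarod minus control −443 UMIs (exact permutation p = 0.269, adjusted p = 0.398). With the 3 controls of cx title left out, formalin minus control was −165 and rotarod minus control −154 UMIs. Formalin minus rotarod was −11.4 UMIs (exact permutation p = 0.952, adjusted p = 0.952), and its sign turned without formalin 3, formalin 6, rotarod 2 or rotarod 4. The summed neuron list stood at 21206 ± 4591 CPM (SD, n = 8) in control, 23479 ± 10014 CPM (SD, n = 10) in formalin and 14922 ± 6383 CPM (SD, n = 4) in rotarod mice. Formalin minus control was 2273 CPM (exact permutation p = 0.606, adjusted p = 0.682) and turned to −1524 CPM without the 2 single nuclei and to −294 CPM without formalin 4, the mouse of the neurofilament-rich nucleus. Rotarod minus control was −6284 CPM (exact permutation p = 0.0707, adjusted p = 0.212) and formalin minus rotarod 8557 CPM (exact permutation p = 0.146, adjusted p = 0.328). The share of OPC nuclei with a defining UMI was 31 of 70 in control (44.3%, exact interval 32.4 to 56.7), 45 of 91 in formalin (49.5%, 38.8 to 60.1) and 8 of 22 in rotarod mice (36.4%, 17.2 to 59.3), with intervals that treat nuclei as independent.

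No gene passed the test between conditions within OPC nuclei. UMIs were summed per mouse over 7 control, 9 formalin and 3 rotarod mice with at least 5 OPC nuclei, and edgeR's quasi-likelihood test was fitted to the 171 genes with enough counts. At an adjusted p under 0.05 the count was 0 of 171 (0.0%) in each of the 3 comparisons. At an unadjusted p under 0.05 it was 8 genes (4.68%) for formalin minus control, 6 (3.51%) for rotarod minus control and 11 (6.43%) for formalin minus rotarod, and DESeq2 called 0 at an adjusted p, with 8, 9 and 11 at an unadjusted p. Of the defining genes Vcan was tested and not called, whereas Pdgfra and Cspg4, with 45 and 36 UMIs in the 19 mice, had too few UMIs to enter the test.

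The smallest p belonged to Cntnap2, an adhesion gene of neurons and myelinated axons. Its OPC level was 1253 to 4104 CPM (median 2949) in 9 formalin mice, 809 to 3556 CPM (median 2481) in 7 control mice and 473, 668 and 965 CPM in the 3 rotarod mice. The rotarod values lay below all formalin values and overlapped with the control values. Formalin minus rotarod was 2.11 on the log2 scale (SE 0.54, edgeR adjusted p = 0.0693) and rotarod minus control −1.91 (SE 0.54, edgeR adjusted p = 0.226); the 2 comparisons share the rotarod mice. Cntnap2 stood at 4727 CPM in neurons and at 0.803 times the neuronal level in OPC nuclei, that is, not above it, and the mean of the neuron list was also lowest in rotarod mice. The part of neuronal RNA in the result was not tested. Without formalin 2 the adjusted p of Cntnap2 was 0.0275 (edgeR, log2 difference 2.21), the 1 call among the fits that left out a mouse. Ttc3, Kirrel3 and Nrg1 were the other genes that were among the 5 smallest p of both comparisons with rotarod mice, and each lay at 0.893 to 1.13 times the neuronal level. For formalin minus control the smallest p belonged to the splicing factor Rbm25, at 463 to 1481 CPM (median 1114) in formalin and 1176 to 2730 CPM (median 2230) in control mice, with a log2 difference of −0.95 (SE 0.31, edgeR adjusted p = 0.822).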

How the data were processed

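The count table, UMIs per gene and nucleus, and the annotation of nuclei were used as the authors deposited them, per the file headers; the values are raw counts, not normalized. Per the submitters' processing notes the build was mm10 (GRCm38). Not given in the sources used here are the aligner, gene annotation, doublet treatment and use of intron reads and strand; doublets were not called again. Pooled CPM, Poisson and exact binomial intervals and exact permutation tests were computed in Python 3.11.15 with numpy 2.4.6 and scipy 1.17.1 (100000 resamples for correlations). Gene tests used edgeR 4.0.16 (TMM, filterByExpr, robust quasi-likelihood, Benjamini-Hochberg) and, as an alternative, DESeq2 1.42.0 in R 4.3.3, and were tested on simulated data. The mouse was the replicate. A gene counted as higher in a class at a 2-fold ratio with at least 10 OPC UMIs; where a class held fewer than 3 UMIs of a gene, 3 were used. Named genes were the 15 with the largest ratio over the 3 other classes and at least 20 UMIs, up to 6 per list by OPC UMIs with each member behind a count of 5 or fewer, and the 5 smallest p where fewer than 5 were called; others were named after their values were seen. Members and gene lists were chosen with earlier results of these data known. Alternatives covered the normalization, the filter, minimum nuclei, thinning, other carry-over settings, 3 control libraries with titles ending in cx, merged formalin pairs and leaving out each mouse. Alternatives that leave out 2 single nuclei or keep nuclei with a defining UMI were added after seeing the data. An edgeR test of nuclei with against those without a defining UMI was run and not used, since the division was chosen from the values. Replicate numbers did not pair formalin with rotarod mice (correlations from −0.10 to 0.08). The labels do not tie libraries to animals beyond their groups, so p-values measure the spread between libraries, called mice here.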

Additional observations from a re-analysis of the deposited data

Results flagged for a closer look

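The Pdgfra level of OPC nuclei stood at 1619 CPM in control 5, against 168 CPM in the nearest of the 7 control mice with at least 5 OPC nuclei, and this gap was large for the range of the group. Control 5 was the 1 sample so placed among 21 groups examined, where chance flags about 1 in 20 groups. The Pdgfra levels of the 7 control mice rest on 20 UMIs, and 1 nucleus of control 5 held 5 of these. The Vcan level of control 5, 1349 CPM, was also the highest of the 7 control mice, with control 4 next at 1241 CPM. Its Cspg4 level, 405 CPM, was within the range of the other control mice, which reached 496 CPM.

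Among the 3818 barcodes that the authors' annotation marks as discarded, 28 nuclei (0.733%, exact 95% interval 0.488 to 1.06) in 15 mice held at least 2 UMIs of Pdgfra, Vcan or Cspg4 and at least 2% of their UMIs from the extended OPC list, a rule set after values were seen. Of the OPC class 50 of 183 nuclei passed the same rule, of the astrocytes 0 of 1224, which allows a share of up to 0.301% (exact interval), and of the barcodes without a label 0 of 757. The 28 nuclei had a median of 740.5 UMIs, and 25 of them held 0 UMIs of the microglia list.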

How the results depend on the processing

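Of 97 recomputed values other than those leaving out a mouse, 79 kept their direction and side of the threshold or stayed within their limits, and of 198 that left out a mouse 192 did. The median UMIs of formalin minus rotarod mice reversed to 32.9 with means per mouse and to 207 with at least 5 OPC nuclei. The neuron list of formalin minus control mice reversed to −266 CPM with 5 neuron genes and to −1524 CPM without the 2 single nuclei. Leaving out a mouse, the share ranged from 0.373 to 0.805 (formalin minus control), −0.575 to −0.270 (rotarod minus control) and 0.817 to 1.22 (formalin minus rotarod). Median UMIs ranged from −567 to −344, −711 to −291 and −163 to 256 in that order, the last reversing without formalin 3, formalin 6, rotarod 2 or rotarod 4. The neuron list ranged from −294 (without formalin 4) to 3578, −8834 to −3993 and 5990 to 11107 CPM, and the carry-over rate from 0.562 to 0.667. Called genes stayed at 0 except without formalin replicate 2, where formalin minus rotarod called 1, Cntnap2 (log2 2.21, edgeR adjusted p = 0.0275). Without the 3 control libraries ending in cx, formalin minus control was 0.336 for the share and −165 for median UMIs. The carry-over rate was 0.445 from 5 neuron genes and 0.541 without the 2 single nuclei. In nuclei with a defining UMI and without the single nuclei it was 0.408. Genes above the neuronal level were 527 of 3741 as reported, 290 of 3741 at 3 times the rate and 321 of 1893 with at least 20 UMIs. Genes 2-fold above oligodendrocytes, astrocytes and neurons were 1074, 980 and 589 as reported (3741 genes). They were 605, 542 and 289 with at least 20 UMIs (1893 genes), and 529, 484 and 274 after thinning (1591 genes). After the carried-over profile was taken off they were 632 and 627 over oligodendrocytes and astrocytes (1372 genes), and 653 and 621 in nuclei with a defining UMI (2041 genes). These settings test fewer genes, so a lower count need not be a lower share of the genes tested. Other causes were not tested. With formalin and rotarod mice of the same number as a replicate block, the differences were 1.43 for the share (exact permutation p = 0.125), −46.5 UMIs (exact permutation p = 1.0) and 12569 CPM (exact permutation p = 0.125), with 0 of 79 genes called by edgeR. These permutation tests turned the signs of paired differences. With 4 pairs for UMIs and CPM the smallest p possible is 0.125. With 5 pairs the share could not reach 0.05 either. Merged formalin pairs called 0 genes. With at least 8 OPC nuclei a mouse, formalin minus control called 0 of 117 genes (edgeR, 5 at an unadjusted p under 0.05); no rotarod mouse was left, so its comparisons were not run. Depth was a median of 832 UMIs a nucleus, and rotarod mice gave 22 OPC nuclei.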

Other observations

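Nuclei with an OPC profile by the rule above also lay in classes with other labels. The microglia class held 9 of its 165 nuclei (5.45%, exact 95% interval 2.52 to 10.1), each from a different mouse. Of these 9 nuclei 7 held 0 UMIs of the microglia list, as did 93 of all 165 nuclei of that class. Their median depth was 1824 UMIs, their median extended-list share 2.96% and their median neuron-list share 0.968%. The microglia class also carried Vcan at 188 CPM and Neu4 at 38.6 CPM. Oligodendrocytes held 7 of 2184 nuclei (0.321%), neurons 2 of 7103 and meningeal or Schwann cells 1 of 1839. In all 47 nuclei outside the class passed, against 50 within it, and 133 OPC nuclei did not pass.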
